A study of Homo sapiens and Mus musculus with 22 samples.

Results

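BIX-01294 was compared with mock in L929 cells labelled cGAS KO, with 1 RNA library on each side. These are 2 of the 22 samples of the series. The comparison covers genes with an FPKM (fragments scaled to transcript length and to the fragments mapped in the library) of at least 1 in 1 of the 2 libraries, which were 11375 of the 22723 genes kept. The members nearest this limit were D630045M09Rik, at 0 and 1.00 FPKM, just inside, and Rrh, at 0.358 and 0.99964, just outside. L929 is a mouse fibroblast line. The series concerns the loss of histone H3 lysine 9 methylation, by BIX-01294 or by other means, and holds 14 RNA samples and 8 chromatin samples from human and mouse lines. The cGAS KO BIX cells carried the cGAS knockout and received 10 µM BIX-01294 (BIX) for 12 h, and the cGAS KO mock cells carried the same knockout and are labelled MOCK. L929 cells labelled cGAS WT, as mock and with 10 µM BIX for 12 h, were set beside them. The labels do not give what the mock cells received, how the knockout was made or whether the line is 1 clone. A treatment note shared by all RNA samples has every cell receiving BIX, while sample names and treatment labels separate mock from BIX, and the names were followed.

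BIX-01294 is a small-molecule inhibitor of G9a (Ehmt2) and GLP (Ehmt1), the enzymes that place lower methylation states on lysine 9 of histone H3 in euchromatin, a mark of silent genes. cGAS (Mb21d1) senses DNA in the cytoplasm and makes a cyclic dinucleotide that activates STING (Tmem173), which leads through Tbk1 and Irf3 to type I interferon and through NF-kappaB to inflammatory genes. The comparison addresses which RNA differences accompany the compound in cells labelled as lacking this sensor.

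Because each group is 1 library, no difference below has a replicate check, and no p or error is given. Differences are log2(FPKM + 1) of BIX minus mock, and a gene is counted as higher or lower when this is at least 1 or at most -1, which is 2-fold on that scale. Adding 1 understates the differences of weakly expressed genes. As a scale for library noise, the replicated groups of the series were used, all labelled MOCK and all in the human line U2OS. They are wild type and the SETDB1 knockouts SETDB1.KO1 and SETDB1.KO2. Between the libraries that form 1 group, 20 to 32 genes differed at least 2-fold, or 0.159% to 0.255% of genes. Relative depth was estimated from the most frequent ratio among genes of low FPKM, and gave 0.997 cGAS KO mock reads for each cGAS KO BIX read. This is a rough estimate, since 19.2% of 1202 such genes had that ratio within 1%, and 8521 genes were listed at 0 in mock against 7310 in BIX. The same estimate for the cGAS WT BIX library was 0.738, from 21.2% of 1318 genes.

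In cGAS KO, 1478 genes (13.0%) were at least 2-fold higher with BIX and 1123 (9.87%) were at least 2-fold lower, together 22.9% of the genes measured. The balance of the counts depends on the scaling: with both columns set to the same upper quartile, 1298 genes were higher and 1324 lower. The higher genes reached further. At least 4-fold apart were 289 higher and 64 lower genes, at least 8-fold 61 and 2, and at least 16-fold 16 and 0. The median difference over all genes was -0.04, and 5441 of the 11375 genes were above 0. Lower genes were rarer among abundant RNAs: at a mean FPKM of 100 or more, 10.4% of 902 genes were higher and 2.33% lower, whereas below a mean of 5 the shares were 16.3% and 12.8% of 2842 genes. RNA of 93 genes went from under 1 FPKM in mock to at least 5 in BIX, and 13 genes showed the reverse.

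**Figure D1:**
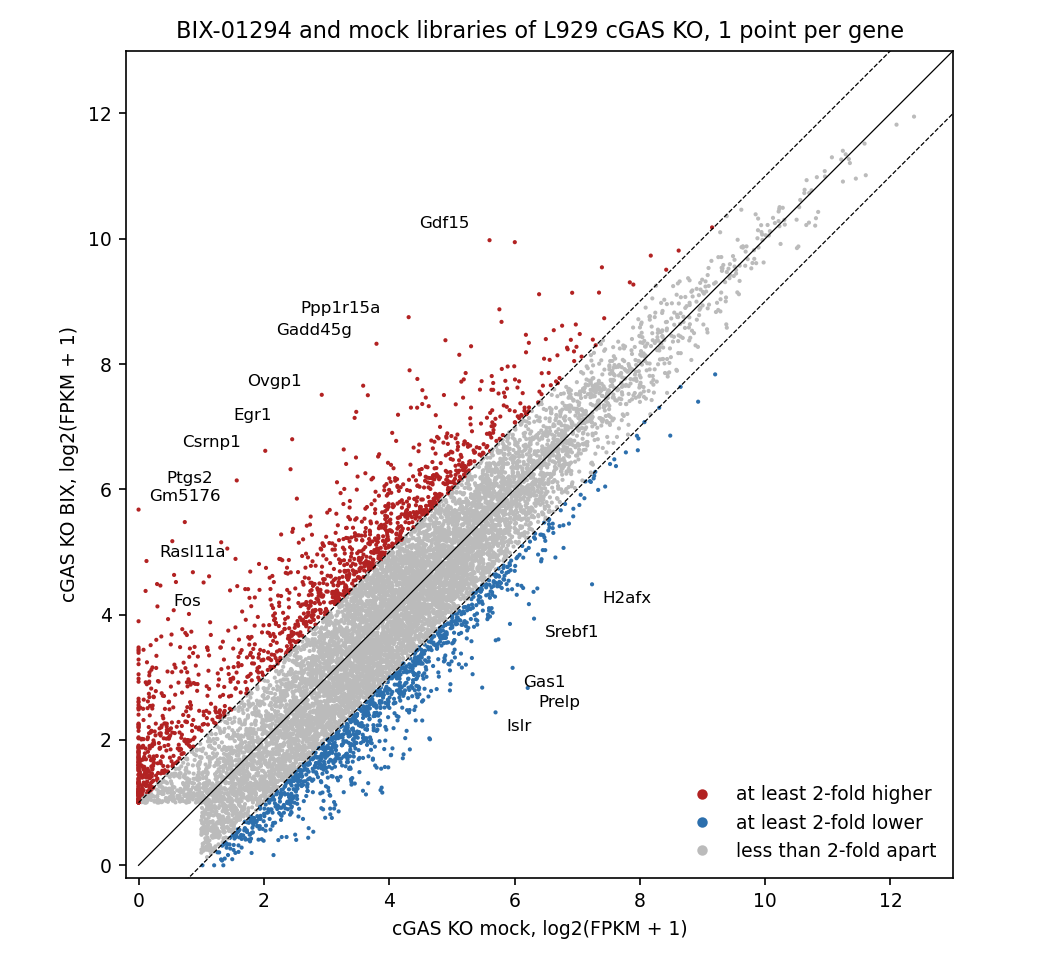
Each point is 1 of 11375 genes, with log2(FPKM + 1) in the cGAS KO mock library on the x axis and in the cGAS KO BIX library on the y axis. Dashed lines mark 2-fold, red points are the 1478 genes at least 2-fold higher with BIX, blue points the 1123 at least 2-fold lower, and the red points lie farther from the diagonal, up to Gm5176, than the blue points, down to Prelp.

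The gene of the knockout, Mb21d1, was at 1.19 FPKM in cGAS KO mock and 4.41 in cGAS KO BIX. In the cGAS WT libraries it was at 2.82 and 3.47. RNA from the locus was therefore present in every library and was highest in a library labelled KO. A gene-level value does not show a small deletion or a frameshift, so these levels do not check the label, and the lines are named here as labelled.

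The targets of the compound were also read as RNA. Ehmt2 (G9a) was at 70.4 FPKM in mock and 49.1 in BIX, a difference of -0.51. Ehmt1 (GLP) was at 10.2 and 9.04. Neither was 2-fold apart in cGAS KO. In cGAS WT, Ehmt2 was at 67.3 and 31.1, a difference of -1.09, and Ehmt1 at 12.7 and 10.5. An inhibitor of enzyme activity need not move the RNA of its target.

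The cell type label was checked against markers. Of 10 fibroblast markers, 7 were at 1 FPKM or more in both cGAS KO libraries, among them the cytoskeletal gene Vim at 1780 and 1183 FPKM and Col1a2, a chain of type I collagen, at 486 and 309. Thy1 and Dcn, often used to mark fibroblasts, were listed at 0 in both. In bulk RNA, fewer cells of a type and less RNA per cell cannot be told apart. The summed level of the 10 genes was 5627 in mock and 4587 in BIX. Of 8 macrophage markers 2 reached 1 FPKM, with sums of 7.77 and 31.9, nearly all of the latter from Cd68, a lysosomal glycoprotein, at 5.11 in mock and 29.6 in BIX. The leukocyte genes Adgre1, Tyrobp and Fcer1g were listed at 0. Epithelial markers summed to 0.519 and 2.41 FPKM and endothelial markers to 0.208 and 1.80.

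Immediate early genes, which cells transcribe within minutes of growth factor or stress signals without new protein, were mostly higher with BIX. Of 32 listed genes 29 reached 1 FPKM. At least 2-fold higher were 23 and lower was 1, and the median difference was 2.20, against -0.04 over all genes. Lists are described here by such counts and medians only, since their members were written down with earlier results of these data known.

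Among subunits of AP-1, the dimeric factor built from Fos and Jun proteins, 6 of 7 were at least 2-fold higher. Fos was at 0.273 FPKM in mock and 21.1 in BIX. Junb was at 22.1 and 191, and Jun at 19.4 and 157. Fosb, Fosl2 and Fosl1 were also higher, and Jund, the subunit that many cells make constitutively, was not, at 91.2 and 61.3.

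Zinc finger factors included Egr1, a serum-responsive activator, at 4.47 FPKM in mock and 110 in BIX, the same level as in the cGAS WT BIX library (110). Klf6 was at 28.8 and 332. Klf10, an early target of TGF-beta, was at 32.4 and 163 in cGAS KO and at 26.7 and 31.9 in cGAS WT. Egr3 was the 1 lower gene of the list, at 1.94 and 0.378. Zfp36, whose protein binds AU-rich elements and shortens the life of cytokine messages, was at 6.65 and 34.3.

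Other early factors showed the same order of size. Csrnp1, a nuclear protein first known as a target of axin, was at 3.06 FPKM in mock and 97.0 in BIX, a difference of 4.59. Maff, a small Maf protein, was at 10.1 and 150. Ier3 was at 19.0 and 238. Myc, the growth-promoting factor, was at 58.3 and 248, and in cGAS WT at 96.4 and 456. Not every member was apart: Srf, which binds the serum response element of many of these genes, was at 32.4 and 48.9, and Nr4a2, an orphan nuclear receptor, was at 3.31 and 1.53.

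Feedback inhibitors of MAP kinase signalling are themselves induced by it. All 15 measured members were above 0 and 9 were at least 2-fold higher, with a median difference of 1.14. Among the phosphatases, Dusp1 was at 14.8 FPKM in mock and 84.8 in BIX, Dusp5 at 5.34 and 25.9, and Dusp4 at 8.93 and 36.4. Spry2, a Sprouty inhibitor of receptor tyrosine kinase signals, was at 9.33 and 51.3. Of the 6 measured Sprouty and Spred members, 2 were at least 2-fold higher and the median was 0.83. Others lay closer together, such as Spry4 at 6.62 and 9.61.

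**Figure D2:**
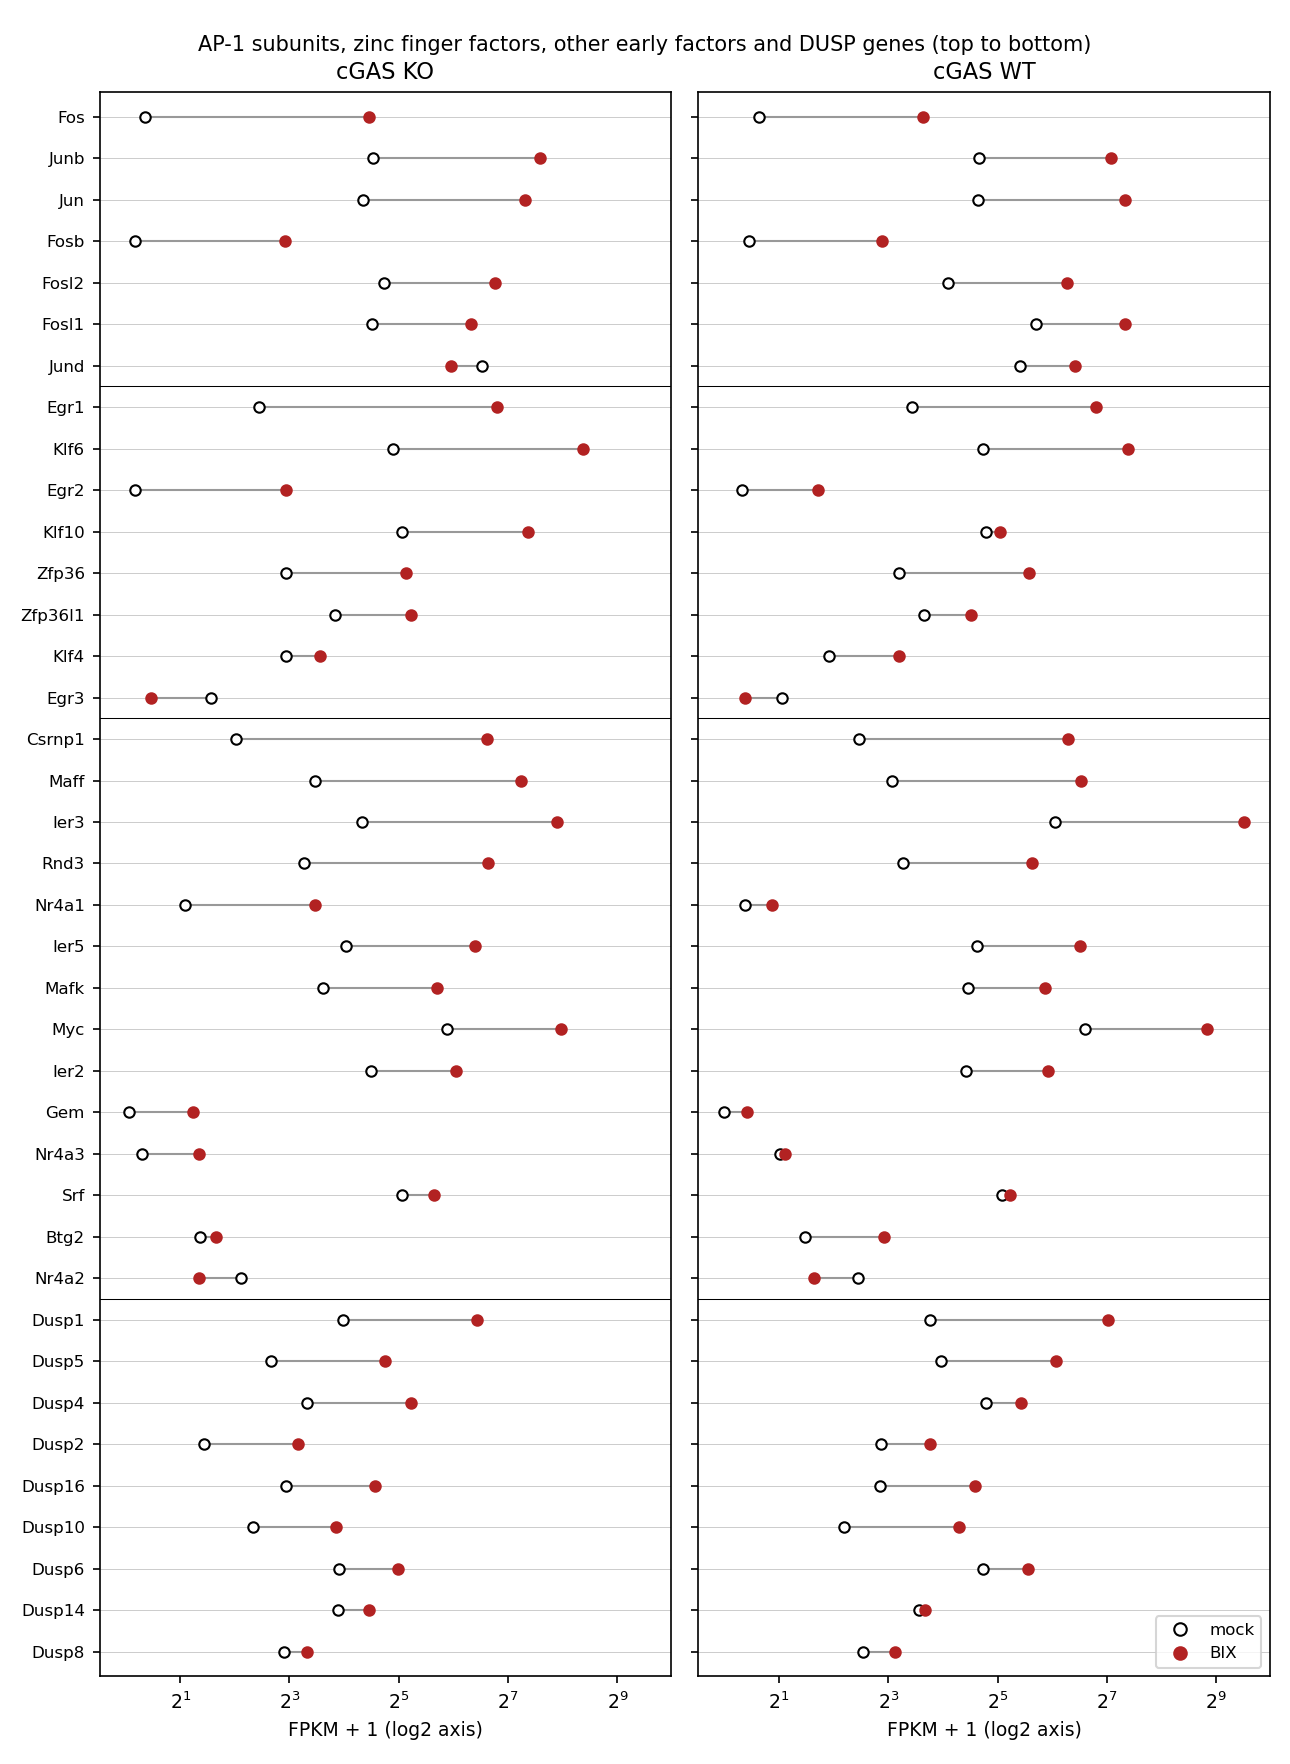
FPKM + 1 on a log2 axis for AP-1 subunits, zinc finger factors, other early factors and dual specificity phosphatases, with open circles for mock, red circles for BIX and 1 library per circle, cGAS KO on the left and cGAS WT on the right. Red circles lie right of the open ones for most genes in both panels, and in cGAS KO Jund, Egr3 and Nr4a2 are the reverse.

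Genes of growth control and stress joined them. Gadd45g, a growth arrest and DNA damage gene, was at 12.9 FPKM in mock and 319 in BIX. Its paralogue Gadd45a was at 43.5 and 211. Of the 4 Gadd45 genes, a family picked after values were seen, 3 were at least 2-fold higher. Cdkn1a (p21), an inhibitor of cyclin-dependent kinases, was at 36.3 and 231, and Mdm2, the ubiquitin ligase of p53, was at 21.3 and 104. Gadd45a, Cdkn1a and Mdm2 are also p53 targets. Yet the p53 list as a whole had 7 higher and 2 lower of 25 genes and a median of 0.30. Bax stood at 110 and 140 FPKM, and Xpc, a DNA repair gene, at 2.84 and 0.909.

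Survival genes of the BCL2 family were close to their mock levels except for Mcl1, a short-lived pro-survival protein, at 120 FPKM in mock and 562 in BIX. Bcl2l1 was at 48.2 and 67.5. Of the BH3-only genes, which promote cell death, Bcl2l11 (Bim) was at 7.65 and 17.4 and Bad at 37.1 and 26.0. The list of 13 measured genes had 2 higher, none lower and a median of 0.11.

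NF-kappaB genes and inflammatory genes were higher in part, 16 of 35 measured, with 1 lower and a median of 0.68. All 5 subunits of the factor were above 0 and 2 were at least 2-fold higher, Rel at 2.54 FPKM in mock and 8.98 in BIX and Relb at 9.48 and 26.4. Rela, the subunit of the classical dimer, was at 55.0 and 64.8. Among inhibitors that NF-kappaB induces, Tnfaip3 (A20) was at 1.49 and 34.6 and Nfkbia at 48.6 and 191. Ptgs2, which makes prostaglandins, was at 1.96 and 69.6, a difference of 4.58. The cytokine gene Tnf was at 1.18 and 23.5, and Il6 at 0.764 and 10.0.

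Chemokine genes of this list diverged. Cxcl1, which attracts neutrophils, was at 83.0 FPKM in mock and 553 in BIX. Cxcl2 was at 0.0960 and 6.41 in cGAS KO and at 9.75 and 227 in cGAS WT. Cx3cl1, a membrane-bound chemokine, was lower, at 16.4 and 5.91. Ccl2 was abundant on both sides, at 397 and 638. Chemokine genes at least 2-fold higher were 3 of the 7 measured.

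Interferon response genes were weakly expressed in cGAS KO. Of 60 listed genes 37 reached 1 FPKM, 14 were at least 2-fold higher and 4 lower. The median of the 37 was 0.71, but it was 0.22 without a minimum FPKM, over the members detected in at least 1 library. Among antiviral effectors, Oas1b was at 0.737 FPKM in mock and 6.83 in BIX, Oasl1 at 1.17 and 7.61, and Ifit3 at 0.144 and 3.35. Ifit1, Rsad2 and Mx1 stayed under 0.4 FPKM in both libraries. Bst2 was at 20.6 and 23.6.

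Signalling components of the interferon pathway were mixed. Irf9, a subunit of the ISGF3 factor, was at 5.29 FPKM in mock and 23.1 in BIX. The receptor gene Ifnar1 was at 11.8 and 4.02, the kinase Tyk2 at 7.79 and 2.65, and Irf3 at 17.9 and 6.33. None of the 4 interferon genes of the list reached 1 FPKM, with Ifnb1 listed at 0 in mock and at 0.291 in BIX, and Ifna4 listed at 0 in both. Ifnab, an interferon alpha gene outside the list that was chosen after its values were seen, was listed at 0 in mock and was at 5.06 in BIX. In cGAS WT, Ifnab was listed at 0 and at 0.240, and Ifna4 at 0 and 6.07. Interferon alpha genes are near-identical copies, so reads can be split between them. In nucleic acid sensing, Tmem173 (STING) was at 13.0 and 11.2, Tbk1 at 23.9 and 41.5, and Mavs, the adaptor of RNA sensing, at 25.2 and 10.5. Ddx58 (RIG-I) was higher, at 1.43 and 6.81.

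Antigen presentation genes did not go with the inflammatory ones. No MHC class I gene of 13 was 2-fold higher and 2 were lower, with a median of -0.33. Tap1, a peptide transporter, was at 13.5 FPKM in mock and 4.77 in BIX, and the immunoproteasome gene Psmb8 at 7.82 and 2.74. H2-K1 was at 177 and 181 and B2m at 1619 and 1956.

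Stress-response genes around eIF2alpha held some of the largest differences, but as a list had 5 higher and 5 lower of 37 and a median of -0.23, against 13.0% higher and 9.87% lower over all genes. The 7 kinases and phosphatase subunits that act on eIF2alpha had a median of 0.64, and 1 of them was at least 2-fold higher. This was Ppp1r15a (GADD34), the phosphatase subunit that ends the response, at 18.8 FPKM in mock and 429 in BIX, a difference of 4.44. Gdf15, a secreted stress cytokine, was at 47.5 and 1006. The 7 measured genes listed as transcription factors had 2 higher, 1 lower and a median of 0.51. Among them, Ddit3 (CHOP) was at 55.9 and 186 and Atf4 at 568 and 1160. Trib3, which was listed with them but is not a transcription factor, was at 97.3 and 38.5.

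Of the 23 measured amino acid enzymes, transporters and other targets of Atf4, 2 were at least 2-fold higher and 4 lower. Only 5 were above 0, and the median was -0.50. Pck2, a mitochondrial enzyme of gluconeogenesis, was at 46.7 FPKM in mock and 14.5 in BIX. Asns, which makes asparagine, was at 252 and 178, and Psat1 of serine synthesis at 298 and 186. The higher genes were Gdf15 and Slc38a2, an amino acid transporter at 228 and 631. Cytosolic tRNA synthetases, another set with Atf4 targets, had none higher and 1 lower (Mars) of 20 and a median of -0.31. Slc7a11, the cystine transporter, was at 7.19 and 8.96 in cGAS KO and at 3.28 and 39.0 in cGAS WT.

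Folding genes of the endoplasmic reticulum had 2 higher and 4 lower of 32 and a median of -0.38. Hspa5 (BiP), the main chaperone of this compartment, was at 752 FPKM in mock and 565 in BIX. In cGAS WT it was at 2566 and 1243, so the mock libraries of the genotypes already differed. Syvn1, a ubiquitin ligase of protein degradation there, was at 22.7 and 6.05 in cGAS KO. Xbp1 was at 59.8 and 26.7. The exceptions were Dnajb9, a co-chaperone at 26.0 and 80.0, and the sensor Atf6 at 9.71 and 27.1.

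Lysosomal genes were higher in the pump and in nutrient sensing but not in the hydrolases. The whole list had 15 higher and 2 lower of 51 and a median of 0.43. For the V-ATPase, the proton pump that acidifies lysosomes, 14 of 15 measured subunits were above 0, 7 were at least 2-fold higher and the median was 0.99. Atp6v1h was at 27.1 FPKM in mock and 127 in BIX, Atp6v1b2 at 47.9 and 148, and Atp6v0b at 126 and 309. Atp6v0a1 was the 1 subunit below 0, at 40.9 and 29.6.

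Regulators of lysosomal nutrient sensing had 4 of 7 measured genes higher. Fnip1, a partner of folliculin, was at 13.2 FPKM in mock and 91.0 in BIX. Flcn itself was at 16.5 and 70.6, and Rragc, a GTPase that recruits mTORC1, at 66.4 and 211. Tfeb and Tfe3, the factors that switch on lysosomal genes, were at 8.07 and 5.85 and at 33.8 and 37.0.

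Of 19 hydrolases only Gla was 2-fold higher, at 9.37 FPKM in mock and 45.0 in BIX. The heparan sulfate enzymes Sgsh and Naglu were lower, at 7.34 and 0.758 and at 10.4 and 2.24. Cathepsin D (Ctsd) was at 234 and 337. In the membrane group Ctns, the cystine exporter, was at 8.18 and 28.5, Npc1 at 9.27 and 23.6, and Lamp1, the most abundant marker, at 452 and 569.

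**Figure D3:**
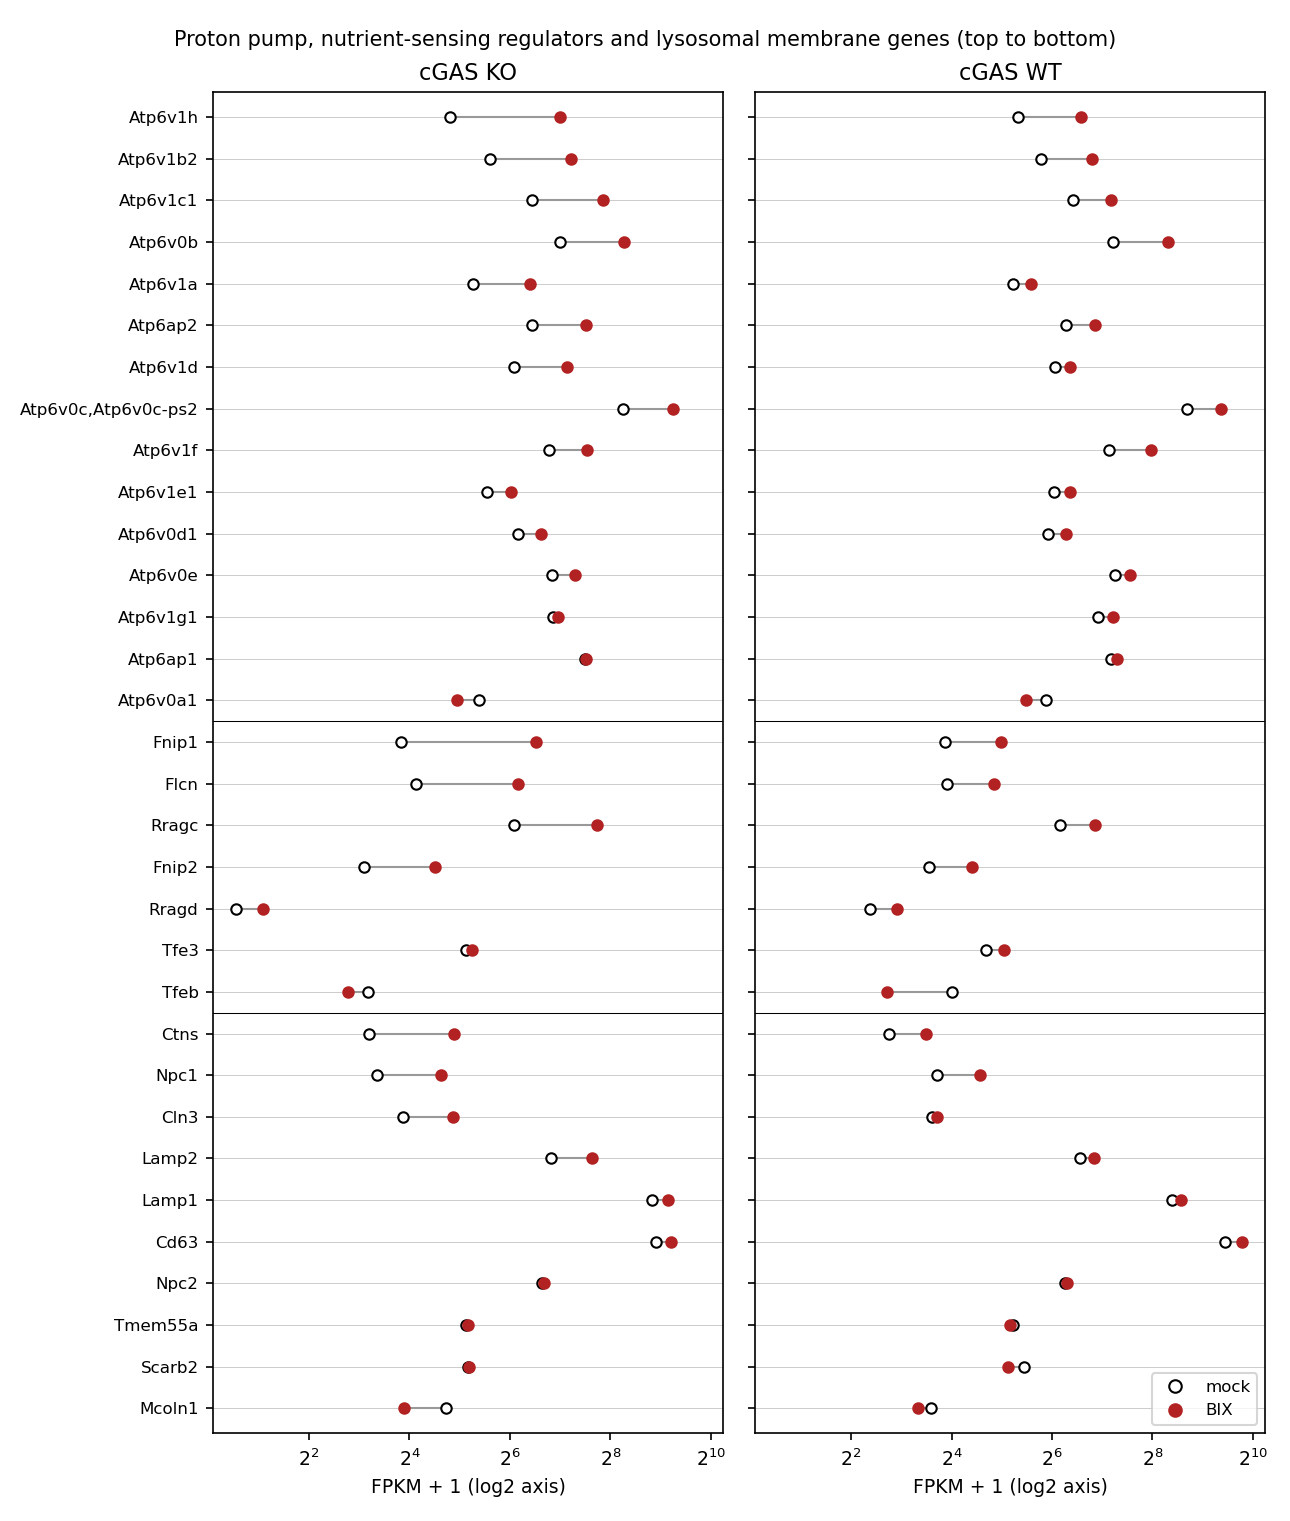
FPKM + 1 on a log2 axis for the V-ATPase, nutrient-sensing regulators and lysosomal membrane genes, with open circles for mock, red circles for BIX and 1 library per circle, cGAS KO on the left and cGAS WT on the right. In cGAS KO the red circle lies right of the open one for 14 of 15 pump genes, and the distance for Fnip1 (13.2 and 91.0) is shorter in cGAS WT (13.7 and 30.9).

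Autophagy, the delivery of cytoplasm to lysosomes, had 11 higher and 2 lower of 40 genes and a median of 0.17. Gabarapl1, a ubiquitin-like protein of the autophagosome membrane, was at 24.9 FPKM in mock and 99.7 in BIX. Map1lc3b (LC3B) was at 63.2 and 151 and the cargo receptor Sqstm1 (p62) at 237 and 616. Among initiation genes Atg14 was at 2.62 and 10.5 and Uvrag at 17.7 and 53.8, both partners in lipid kinase complexes. Ulk1, the kinase that starts the process, was at 7.22 and 4.52, and Atg2a, a lipid transfer protein, at 7.64 and 2.10. Atg5, the gene knocked down elsewhere in the series, was at 14.9 and 16.3.

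Genes of replication and division mostly had differences below 0, and a minority passed 2-fold. Mitotic genes had none higher, 12 lower and 11 above 0 of 59, with a median of -0.58. Plk1, a mitotic kinase, was at 89.2 FPKM in mock and 44.9 in BIX. Ccnf, read as a locus joined with Mir5134, was at 23.9 and 3.07. The kinetochore gene Nuf2 was at 37.4 and 12.8, and Kif20a, a motor of cytokinesis, at 34.6 and 13.3. Top2a, the topoisomerase of chromosome segregation, was at 121 and 130.

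DNA replication had none higher, 7 lower and 8 above 0 of 43, with a median of -0.44. All 7 were fork and nucleotide genes, such as Pold1, the catalytic subunit of polymerase delta, at 30.2 FPKM in mock and 8.22 in BIX, and Tk1, thymidine kinase, at 84.9 and 27.9. Origin licensing genes were below 0 in 14 of 17 cases without reaching 2-fold, for example Mcm5 at 82.1 and 43.7. Pcna was at 325 and 366. Among cell cycle drivers, Ccne1 (cyclin E) was at 26.5 and 10.6 and Ccnd3 (cyclin D) at 104 and 41.6, while Cdkn1a was the only gene of 26 at least 2-fold higher.

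Replication-dependent histone genes differed in sign from most other S phase genes. Of 28 found, 21 reached 1 FPKM, 13 were at least 2-fold higher and 2 lower. The median of the 21 was 1.21, and it was 1.00 without a minimum FPKM, over the members detected in at least 1 library. It was 2.51 with a pseudocount of 0.1 and 2.52 at a minimum FPKM of 5. Hist1h1e, a linker histone, was at 0.143 FPKM in mock and 10.4 in BIX, Hist1h4d at 0.441 and 11.8, and Hist1h3e at 0.583 and 10.2. The lower genes were Hist1h1c, at 12.8 and 5.82, and Hist2h2be, at 3.87 and 0.893.

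Most of these messages normally end in a stem-loop without a poly(A) tail, and the libraries were made from poly(A)-selected RNA. The part of this in their levels was not tested. Copies within a cluster are near-identical and reads can be split between them, which makes single-gene values uncertain. Taken by name after values were seen, 36 of 65 genes of the Hist clusters reached 1 FPKM, with 22 higher, 3 lower and a median of 1.20. In cGAS WT 26 did, with 3 higher, 1 lower and a median of 0.45. H2afx, a variant whose message also exists with a poly(A) tail, was lower, at 150 FPKM in mock and 21.4 in BIX, with differences of -2.75 in cGAS KO and -1.38 in cGAS WT.

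Among methyltransferases of H3 lysine 9 other than the targets, Suv39h2 was at 5.53 FPKM in mock and 15.4 in BIX, and its paralogue Suv39h1 at 32.8 and 16.1. Setdb1, knocked out elsewhere in the series, was at 22.4 and 25.4. Demethylases of this residue had 4 higher and none lower of 10 and a median of 0.60. Jmjd1c was at 7.33 and 27.3, and Kdm3a at 11.2 and 37.4. Uhrf1, which brings the maintenance DNA methyltransferase to replicated DNA, was at 99.6 and 29.1, and Dnmt1 at 76.6 and 40.0.

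Other histone modifiers had 5 higher and 1 lower of 16. The H3 lysine 27 demethylase Kdm6b was at 6.77 FPKM in mock and 33.2 in BIX and Kdm6a at 6.42 and 15.9. Ezh1, a Polycomb methyltransferase, was at 8.01 and 3.25, and Ezh2 at 44.2 and 41.4.

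Germline genes that H3K9 methylation is known to silence in somatic cells were near 0 with BIX too. Of 24 genes, Rhox5 alone reached 1 FPKM, in mock (1.11, against 0.416 in BIX). Ddx4 was listed at 0 in mock and 0.168 in BIX, and Mael, Tex15 and Asz1 were listed at 0 in both. Of 9 genes derived from retroviruses, Syna, an envelope gene captured in rodents, was the 1 at least 2-fold higher, at 0.415 and 2.29. Zinc finger genes named Zfp were close to the background, with 32 higher (11.6%) and 20 lower (7.27%) of 275.

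Extracellular matrix genes tended to be lower. Collagens had 1 higher and 4 lower of 14 and a median of -0.62. Col1a1 was at 192 FPKM in mock and 88.2 in BIX, and Col6a2 at 249 and 97.6. Both were lower in the cGAS WT mock library to begin with, at 40.9 and 42.6, and the cGAS WT BIX library had 21.4 and 18.3. The 1 higher gene was Col12a1, at 0.0835 and 1.64.

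Matrix glycoproteins, proteases and their inhibitors were 3 higher and 5 lower of 27. Islr, a secreted leucine-rich repeat protein, was at 50.9 FPKM in mock and 4.43 in BIX, a difference of -3.26. Loxl3, a crosslinking enzyme, was at 20.5 and 3.97. The proteases Mmp11 and Mmp14 were also lower.

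Targets of YAP and TGF-beta, pathways that respond to cell shape and matrix, had 10 higher and 2 lower of 17 and a median of 1.73. Smad7, an inhibitor of TGF-beta receptors, was at 4.37 FPKM in mock and 79.0 in BIX. Cyr61 was at 20.9 and 216 and Ankrd1 at 71.6 and 353. Id2 and Id3, which block bHLH factors, were at 28.1 and 106 and at 49.0 and 153 in cGAS KO. In cGAS WT they were at 20.3 and 22.7 and at 30.1 and 22.4. Tgfbi was lower, at 86.5 and 31.7, and was at 0.458 in cGAS WT mock. Ctgf, a standard YAP target, was listed at 0 in mock and was at 0.313 in BIX.

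Clock genes lay on both sides. Of 15, 6 were higher and 3 lower, with a median of 0.92. Nr1d1 and Nr1d2 (REV-ERB), repressors of the clock, were at 23.8 and 160 FPKM and at 15.8 and 79.8. Bhlhe40 was at 38.4 and 130 in cGAS KO and at 37.4 and 35.6 in cGAS WT. Per3, Cry2 and Dbp were the lower genes, with Per3 at 6.04 and 1.95.

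Smaller lists gave the following. Cyclic AMP and CREB targets had 5 higher of 8, led by Ppargc1a, a coactivator of mitochondrial genes, at 4.48 FPKM in mock and 39.0 in BIX. Growth factor genes had 4 higher of 11, with Bdnf at 2.62 and 18.4. The metal-binding Mt2 was at 392 and 897, and the zinc exporter Slc30a1 at 10.8 and 43.8. Heat shock genes had 3 higher of 16, with Dnajb4 at 14.2 and 65.3 and Hspa8, the constitutive chaperone, at 1479 and 939. Targets of NRF2, the oxidative stress factor, had a median of 0.05, which is -0.04 after scaling to the same upper quartile. Of this list, Hmox1 (haem oxygenase) was at 24.5 and 109 and Txnrd1 at 69.1 and 185.

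Lipid synthesis genes lay on both sides of their mock levels, as did all genes, of which 13.0% were higher and 9.87% lower. Srebf1, the factor that drives fatty acid genes, was at 78.4 FPKM in mock and 14.3 in BIX, while Fasn was at 63.6 and 45.2. Fatty acid genes had 1 higher and 2 lower of 14 and a median of -0.43. Sterol synthesis had 2 higher and 3 lower of 26 and a median of 0.39, with Msmo1 at 65.1 and 196 and Mvk at 16.5 and 6.38.

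Housekeeping complexes lay near the centre. None of 71 ribosomal protein genes was 2-fold apart and their median was 0.13. Proteasome genes had none apart of 34 and a median of 0.11, and respiratory chain genes 1 lower (Ndufs7) of 40 and a median of -0.12. Hypoxia and glycolysis genes had 2 higher of 29 and a median of 0.17. Ribosome biogenesis lay further up, with 26 of 30 genes above 0, 3 at least 2-fold higher and a median of 0.42. Its nucleolar GTPase Gnl3 was at 56.8 and 212 FPKM. The list of RNA decay factors and host genes of small nucleolar RNAs had 3 higher of 14, a median of 0.34, and none lower. Taken by name after values were seen, 6 of 13 Snhg host genes were higher and none lower, against 13.0% and 9.87% over all genes. In cGAS WT 4 of 14 were higher and 2 lower, and the medians were 0.99 in cGAS KO and 0.34 in cGAS WT. The higher ones in cGAS KO included Snhg1 at 63.2 and 985 and Snhg12 at 33.7 and 283, while Snhg3 was at 131 and 133 and Gas5, another host gene, at 16.9 and 17.0.

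**Figure D4:**
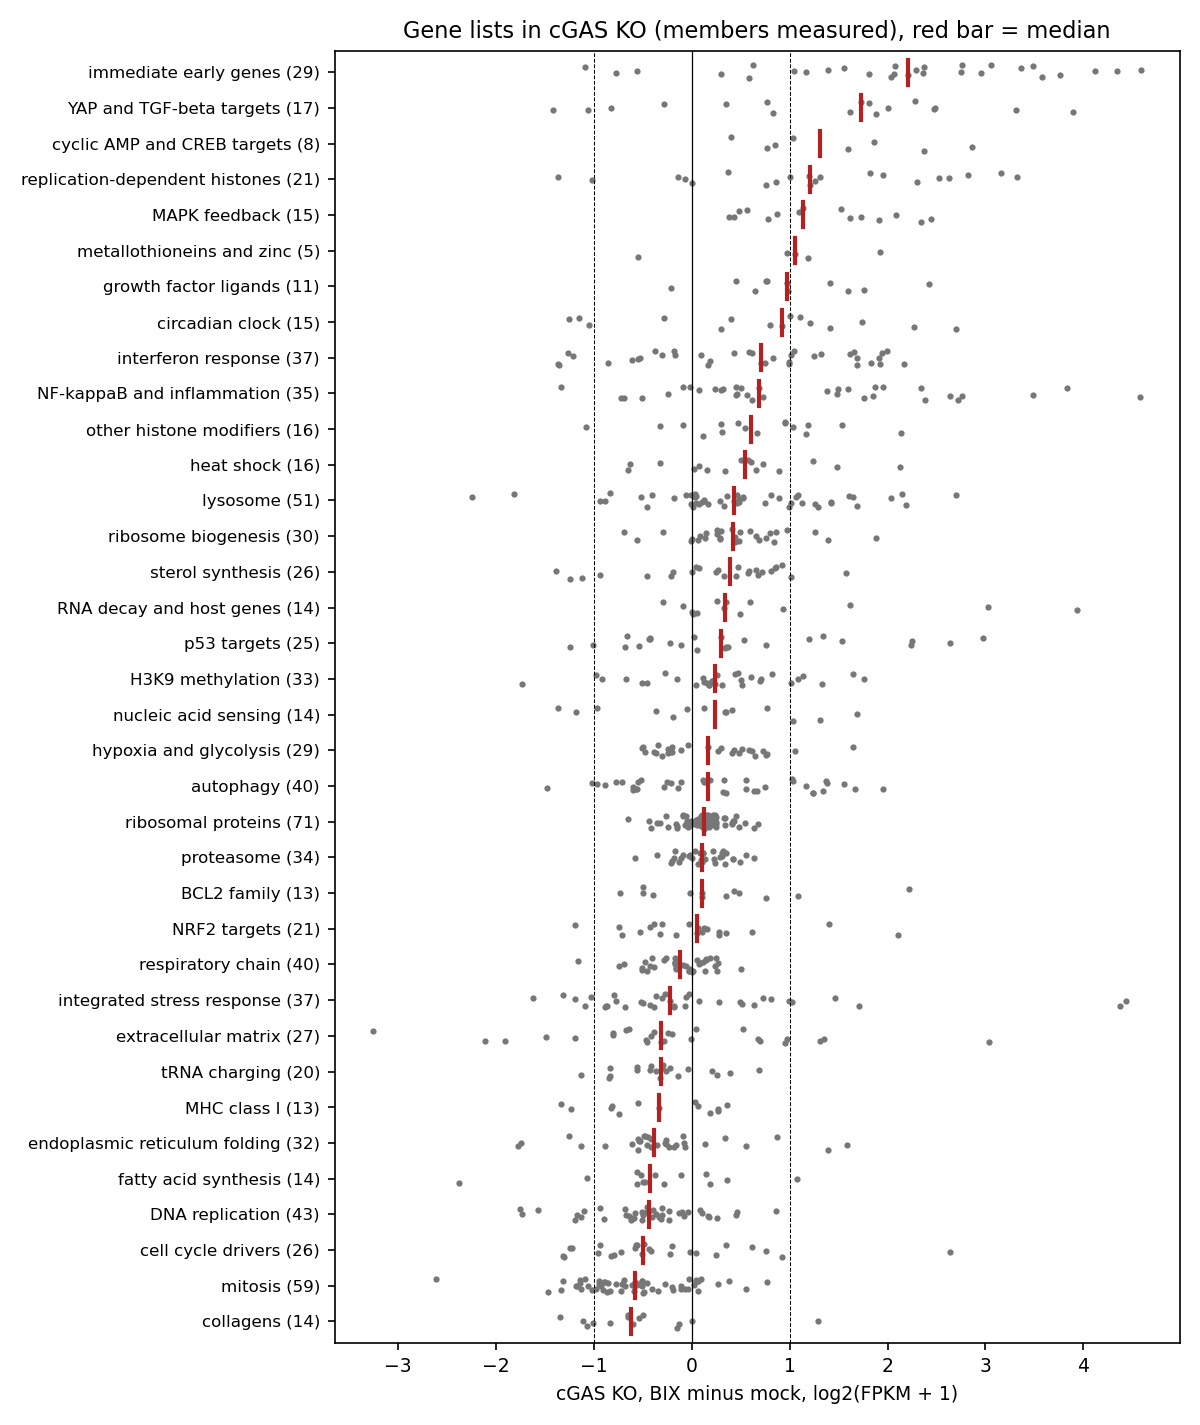
Log2(FPKM + 1) of BIX minus mock in cGAS KO for each measured member (grey point) of each gene list with at least 5 such members, ordered by the list median (red bar), with dashed lines at 2-fold and the number of measured members in parentheses. Immediate early genes are at the top with a median of 2.20, ribosomal proteins sit tightly around 0.13, and mitosis and collagens are at the bottom.

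The largest single differences were led by genes with little RNA in mock. Gm5176, a predicted gene, was listed at 0 in mock and was at 50.2 FPKM in BIX. S100a5, a calcium-binding protein, was at 0.668 and 43.6, Rasl11a, a Ras-like GTPase, at 0.0917 and 28.0, and Plcxd2 at 0.453 and 35.1. Ovgp1, an oviduct glycoprotein, was at 6.59 and 181, and Gm11974 at 11.0 and 200. Genes of other tissues were among them, such as Cd79a, part of the B cell receptor, at 0.227 and 21.5, and Ampd1, the muscle AMP deaminase, at 0.0807 and 19.8. Each of these 8 genes was at least 2-fold higher with BIX in cGAS WT too, for example Ovgp1 at 11.8 and 153.

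Some 14 genes were listed at 0 in mock and reached 5 FPKM in BIX, and none showed the reverse. They include Hamp, the iron hormone hepcidin, at 9.71 FPKM in BIX, Baat, a bile acid conjugating enzyme, at 9.89, and Fzd1, a Wnt receptor, at 7.27. These 3 were chosen after their values were seen. In cGAS WT, Baat was at 0.0997 and 11.2 and Fzd1 was listed at 0 in mock and at 11.9 in BIX. An entry of 0 in such a table can be a failed estimate, so no fold is given for these genes.

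The lower side was led by Prelp, a matrix proteoglycan, at 73.1 FPKM in mock and 6.11 in BIX, a difference of -3.38. In cGAS WT it was nearly absent, at 0.824 and 0.0690. Gas1, a membrane protein of growth arrest and hedgehog signalling, was at 61.7 and 7.88. Klf15, a metabolic zinc finger factor, was at 13.8 and 1.23, and G0s2, an inhibitor of fat breakdown, at 13.5 and 1.30. Peg13, a non-coding RNA of an imprinted locus, was at 11.4 and 1.19, and in cGAS WT mock at 0.0775. Olfml3 (43.8 and 6.14), Lpar5 (13.7 and 1.36) and Trib2 (19.1 and 2.60) were of like size, and each of them was also at least 2-fold lower in cGAS WT.

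The same treatment in cGAS WT was set beside these values. It shares no library with the cGAS KO comparison, and with 1 library per group a difference between genotypes could not be tested. In cGAS WT 820 of 11077 genes (7.40%) were at least 2-fold higher and 683 (6.17%) lower. The part of the lower estimated depth of the cGAS WT BIX library in these counts was not tested. The spread of the differences was also smaller, with an SD across genes of 0.732 against 0.887 in cGAS KO. The mock libraries of the genotypes were themselves at least 2-fold apart in 863 of 11014 genes (7.84%), with 518 higher in cGAS KO (4.70%) and 345 lower (3.13%), and genotype, clone and library cannot be told apart.

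Across the 10744 genes measured in both genotypes, the differences had a Pearson r of 0.821. This is a description across genes, which are not independent replicates. The 4 libraries come from separate tables that list the same genes. Higher in both were 590 genes, which is 39.9% of those higher in cGAS KO and 72.0% of those higher in cGAS WT. Lower in both were 425, or 37.8% and 62.2%. Of the 1478 genes higher in cGAS KO, 1421 (96.1%) were above 0 in cGAS WT, and of the 1123 lower genes 1084 (96.5%) were below 0 there. Over all genes measured in cGAS WT the median difference was -0.04. Past 2-fold in opposite directions were 2 genes, Myo1g and Naprt.

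**Figure D5:**
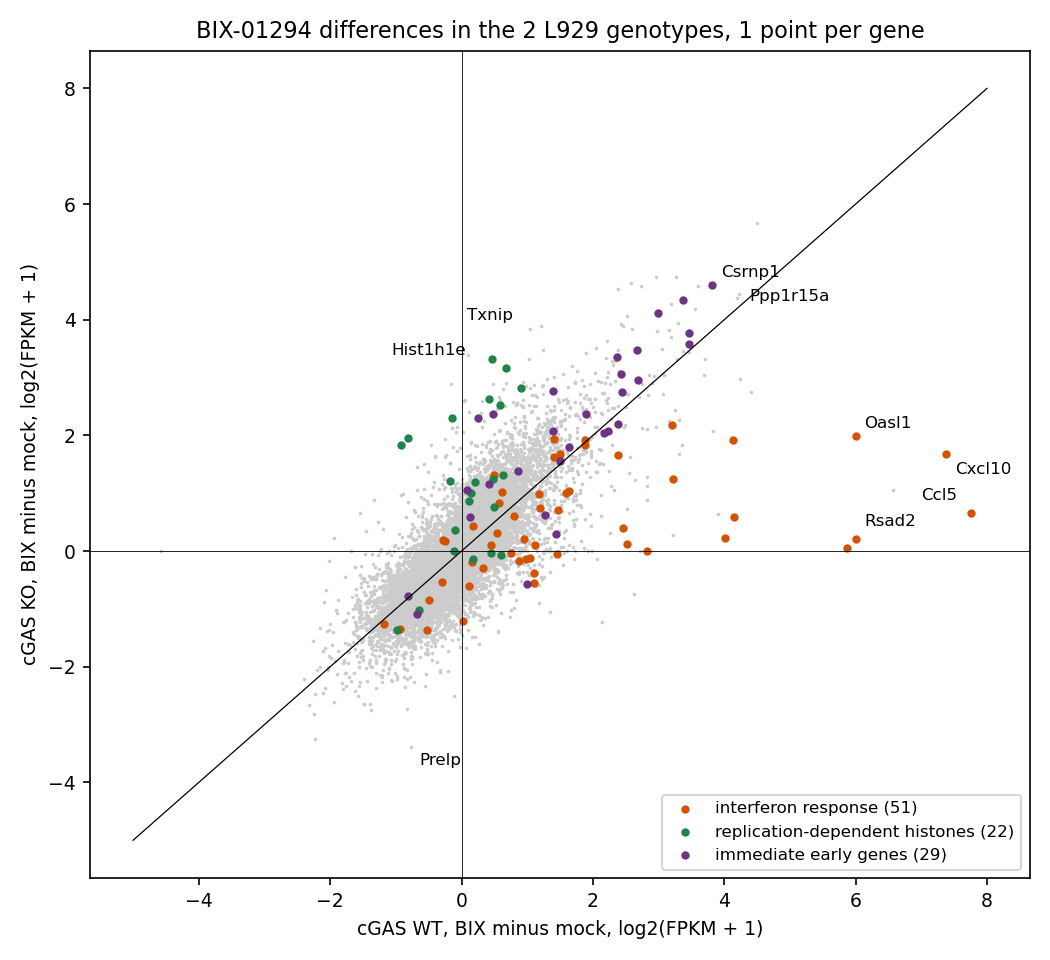
Each point is a gene with an FPKM of at least 1 in at least 1 of the 4 L929 libraries, with the BIX minus mock difference in log2(FPKM + 1) in cGAS WT on the x axis and in cGAS KO on the y axis, and the line marks equal values. Of the immediate early genes (purple), 20 of the 27 measured in both genotypes lie above the line. Interferon response genes (orange) reach far to the right with Ccl5 and Cxcl10, and histone genes (green) such as Hist1h1e lie above the line.

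The genes whose difference was most below that of cGAS WT were mainly ones known to be induced by interferon. Ccl5, a T cell chemokine, was at 0.243 FPKM in mock and 0.967 in BIX in cGAS KO, and was listed at 0 and at 215 in cGAS WT. Cxcl10 was at 0.188 and 2.82, against 0.0957 and 182. Ifit1, which binds viral RNA, was at 0.0710 and 0.106, against 0.179 and 67.5. Rsad2, Ccl4, Oasl1, Oasl2 and Isg15 make up the other 5 of the 8 named by rank. Isg15, a ubiquitin-like modifier, was at 2.54 and 4.32, against 3.21 and 73.4.

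Of the 60 listed interferon genes, 29 were at least 2-fold higher in cGAS WT and 14 in cGAS KO. Those measured were 50 in cGAS WT and 37 in cGAS KO. Some, such as Ifit1 and Rsad2, reached 1 FPKM in the cGAS WT BIX library alone. Among the 36 measured in both, the median was 0.66 in cGAS KO and 1.10 in cGAS WT. Not all members differed in this way. Ifit2 was at 4.66 and 20.4 FPKM in cGAS KO and at 9.88 and 39.0 in cGAS WT, and Irgm1 at 2.98 and 13.2 and at 5.25 and 21.9. NF-kappaB genes had 16 higher of 35 in cGAS KO and 18 of 35 in cGAS WT.

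The genes whose difference was most above that of cGAS WT came from other groups. Txnip, a glucose-responsive arrestin that binds thioredoxin, was at 11.6 FPKM in mock and 180 in BIX in cGAS KO and at 31.3 and 65.3 in cGAS WT. Tubb3, a neuronal tubulin, was at 0.0564 and 9.85, and was listed at 0 and at 0.382 in cGAS WT. Ufsp1 was at 3.82 and 28.6, against 10.4 and 10.8. Hist1h1e and Hist1h4a were among these 8, as were Gm20594 and Gm1141, both listed at 0 in cGAS KO mock. Gm12238 ranked first only through cGAS WT, where it was at 22.9 in mock and listed at 0 in BIX, while both cGAS KO values were listed at 0.

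Several lists lay on the same side of 0 in both genotypes with different size. Immediate early genes had medians of 2.20 in cGAS KO and 1.89 in cGAS WT over the 27 genes measured in both. YAP and TGF-beta targets had 1.77 and 0.73 over 16 genes, and histones 1.21 and 0.18 over 15. Mitotic genes were closer to mock in cGAS KO, at -0.58 against -0.93 over 59 genes, and so were folding genes of the endoplasmic reticulum, at -0.38 against -0.75 over 32. Among V-ATPase genes the medians of the 15 measured were 0.99 and 0.36. Of the 590 genes higher in both genotypes, 452 had the larger difference in cGAS KO. Over all 10744 genes measured in both, the cGAS KO difference was above the cGAS WT one in 5839.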

How the data were processed

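Poly(A)-selected RNA of L929 cells was sequenced as paired ends with TruSeq libraries on an Illumina HiSeq instrument, per the labels' protocols. Reads were checked with FastQC, trimmed with cutadapt, aligned with TopHat2 to mm10 and quantified with Cufflinks, per the submitters' processing notes. For versions, options, annotation and strandedness, the sources used here give nothing. The deposited tables list FPKM per gene as the authors computed it, without counts, so depth is known only relatively and no counting interval is given.

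Of the entries of a repeated symbol, the one with the highest mean was kept. Loci that join several symbols were kept as 1 gene (312), and 1126 genes of short non-coding RNAs were left out, leaving 22723 of 24138 entries. Values were compared as log2(FPKM + 1) with a minimum FPKM of 1 in 1 of the 2 libraries, using python 3.11.15, numpy 2.4.6 and pandas 2.3.3. The scripts were tested on simulated data. With 1 library per group no test was run.

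Members and the 38 gene lists were chosen with earlier results of these data known. Named genes are the 15 with the largest difference in each direction at an FPKM of at least 5 in 1 library, up to 4 of each list and more where a role is described, the knockout and inhibitor targets with the other H3K9 methyltransferases, and the 8 with the largest difference between genotypes in each direction. Other genes are named as members of a described role, or as chosen after their values were seen. The sets taken by name (Hist, Zfp, Snhg and Gadd45) were also chosen after values were seen. Alternatives covered the pseudocount, the filter, the fold, scaling, merged loci, repeated symbols and short RNAs. Promoters were not examined, because no mouse sequences were used here. The chromatin and ATG5 samples were not used, and the SETDB1 samples only as a scale for replicates.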

Additional observations from a re-analysis of the deposited data

Results flagged for a closer look

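For 6 genes, differences of opposite sign in the genotypes were either past 2-fold in both or, among the genes described here, larger in both than the SD of 0.232 between U2OS replicates. With 1 library per group the difference between genotypes was not tested. Myo1g, a myosin of blood cells, was at 5.39 FPKM in cGAS KO mock and 1.73 in cGAS KO BIX, and at 0.0563 and 3.66 in cGAS WT. Its log2 differences were -1.23 and 2.14, and the first minus the second was -3.37. Naprt, an enzyme of NAD synthesis, had differences of -1.06 in cGAS KO and 1.35 in cGAS WT, which is -2.41 apart. The H3K9 methyltransferase gene Setdb2 was at 6.52 and 9.46 FPKM in cGAS KO and at 7.44 and 4.88 in cGAS WT, with differences of 0.48 and -0.52 that lie 0.998 apart. Hist1h4a, a histone H4 gene, had differences of 1.95 and -0.81, which lie 2.76 apart. Jund, the AP-1 subunit, had differences of -0.56 and 1.00, and the first minus the second was -1.57. Id3, an inhibitor of bHLH factors, had differences of 1.62 and -0.41, which lie 2.03 apart. Myo1g and Naprt are the only genes past 2-fold in opposite directions among the 10744 compared. Signs also differed for genes with a smaller difference in 1 genotype, such as Bhlhe40 at 1.74 and -0.07.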

How the results depend on the processing

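No difference of at least 2-fold among the named genes changed direction under the alternatives run. No paired analysis was possible because the L929 samples carry no replicate numbers and each group is 1 library, so no library could be left out either. The count of genes depends on the fold chosen: at 1.5-fold 2637 genes were higher and 2740 lower in cGAS KO, and at 3-fold 579 and 190, of which 21.1% of the lower genes were also lower in cGAS WT (37.8% at 2-fold). A pseudocount of 0.1 gave 1773 higher and 1623 lower, and a minimum FPKM of 5 gave 1113 and 908. Scaling both columns to the same upper quartile, a log2 shift of -0.09, gave 1298 and 1324, so that the higher share of genes 2-fold apart was 49.5% instead of 56.8%, and 5 lists instead of 2 had a median of at most -0.5. The median of NRF2 targets changed sign under it, from 0.05 to -0.04. Of the 148 named genes 2-fold apart, 146 stayed so under that scaling and 148 with a pseudocount of 0.1, which moved the size of 57 of 190 named values. List medians moved in 14 of 303 cases: that of interferon genes was 0.71, 0.22 with no filter and 0.17 at a minimum FPKM of 5, and that of histones 1.21, 2.51 with a pseudocount of 0.1 and 2.52 at a minimum FPKM of 5. The promoter motif alternative was not run, as no mouse promoter sequences were used here. Without counts, differences of genes under about 1 FPKM cannot be given an interval.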
